A study of Drosophila melanogaster with 35 samples.

Results

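Odorant-binding proteins (Obps) are small secreted proteins of Drosophila melanogaster, and their genes were taken as every row of the deposited RNA tables whose symbol starts with Obp followed by a digit. The rule found 49 of 15163 genes in the table of BG3C2 cells and 49 of 15061 genes in the table of brains. Together these are 50 symbols, of which 48 stand in both tables, each at the same locus. Obp50c stood only in the BG3C2 table and Obp50b only in the brain table, at one and the same locus. The rule used names and no measured value. It leaves out lush, the Obp that carries a name of its own, whose values are given with the chemosensory genes below.

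Obps fill the aqueous lymph around sensory dendrites in olfactory and taste hairs, where they bind hydrophobic odorants and pheromones and act upstream of the receptors. Several members are made outside sense organs, in glia, fat body, gut or male accessory glands, where they are thought to carry other small ligands. Most members have short genes that lie in tandem clusters, left by repeated gene duplication.

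The series depleted DMAD, the Drosophila Tet-family protein that the study describes as removing N6-methyladenine (6mA) from DNA, encoded by CG43444, formerly CG2083. BG3C2 cells, a line of larval nervous system origin, were compared as wildtype cells (3 RNA libraries) and as DMAD knockdown cells (3 RNA libraries). Knockdown used dsRNA of 580 bp against CG2083 for 144 hours in cells first held without serum, and the labels do not say what the control cells received. Brains of wildtype flies and of DMAD-knockout flies gave 2 RNA libraries each, with the age, sex, number of animals and kind of knockout allele not given in the labels. Nothing in the labels states that the libraries of a group are biological replicates, and the p-values may therefore reflect technical variation alone.

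Each table gives 1 authors' FPKM (an expression level per length of transcript and depth of library) for a gene in a group. No library-to-library spread can be shown, and every fold change, p and q below is the authors' own from Cuffdiff. A gene is called here when it was tested and its q, the p adjusted over all genes, is below 0.05. The target CG43444 was listed at 65.9 FPKM in control and 34.9 FPKM in knockdown cells, and at 39.8 FPKM in control and 40.4 FPKM in knockout brains, so its FPKM does not check the knockout label. All 9 neuronal marker genes in the brain table were tested and listed lower in knockout, with a median log2 fold change of -0.10. All 8 glial ones were tested, 6 listed higher and 2 lower, with a median of 0.07. No gene of either list had a Cuffdiff p below 0.05. The brain libraries also held the 14 photoreceptor genes searched for, with ninaE, the main rhodopsin, at 3597 FPKM in control and 3376 FPKM in knockout. In BG3C2 cells 6 of the 9 neuronal markers, among them the synaptic genes brp, Syt1 and n-syb, stood below 1 FPKM in both groups. The RNA came from whole cultures and tissue, so fewer cells of a type and less RNA per cell cannot be told apart.

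The members lie on 5 chromosome arms, with 27 on 2R, 12 on 3R, 6 on X, and 2 on each of 2L and 3L. This gave 2R 55.1% of the members and 20.1% of all genes of the brain table. Their loci had a median length of 806 bp, against 3785 bp for all genes of that table. The shortest was Obp99d (414 bp) and the longest Obp85a (113266 bp), whose listed locus is merged with CG31462 and CG43462. Because the tables give overlapping transcripts 1 shared locus, 9 members share theirs with a gene outside the family, and Obp57b with Obp57c and Obp83cd with Obp83ef share theirs with each other.

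In brains the family was dominated by Obp44a, a member made by glia (dm3, 2R:4018938-4022588, a locus shared with Pabp2). Obp44a was listed at 8550 FPKM in control and 8401 FPKM in knockout brains, the highest value of all genes in each group. The next highest gene of control brains, CG8369, stood at 4495 FPKM. Obp44a alone made up 93.4% of the family's summed FPKM in control and 89.8% in knockout brains. Its log2 fold change in the authors' deposited table was -0.03, with p = 0.958, so the most abundant member was close to equal in both groups.

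The other 48 members of the brain table summed to 603 FPKM in control and 950 FPKM in knockout brains. Of all 49, 21 were listed higher in knockout brains, 11 lower and 17 at 0 in both groups. Cuffdiff tested 19 members (38.8%, against 54.9% of all genes) and gave the other 30 no test. Of the 19 tested, 16 were listed higher and 3 lower, which is 84.2% higher against 48.8% of all tested genes. Among the 30 without a test, 5 were listed higher and 8 lower, so lower values were the more frequent there. A gene can reach a test through a high value in 1 group alone, as Obp56g did, and the counts over tested members are a description only.

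**Figure D1:**
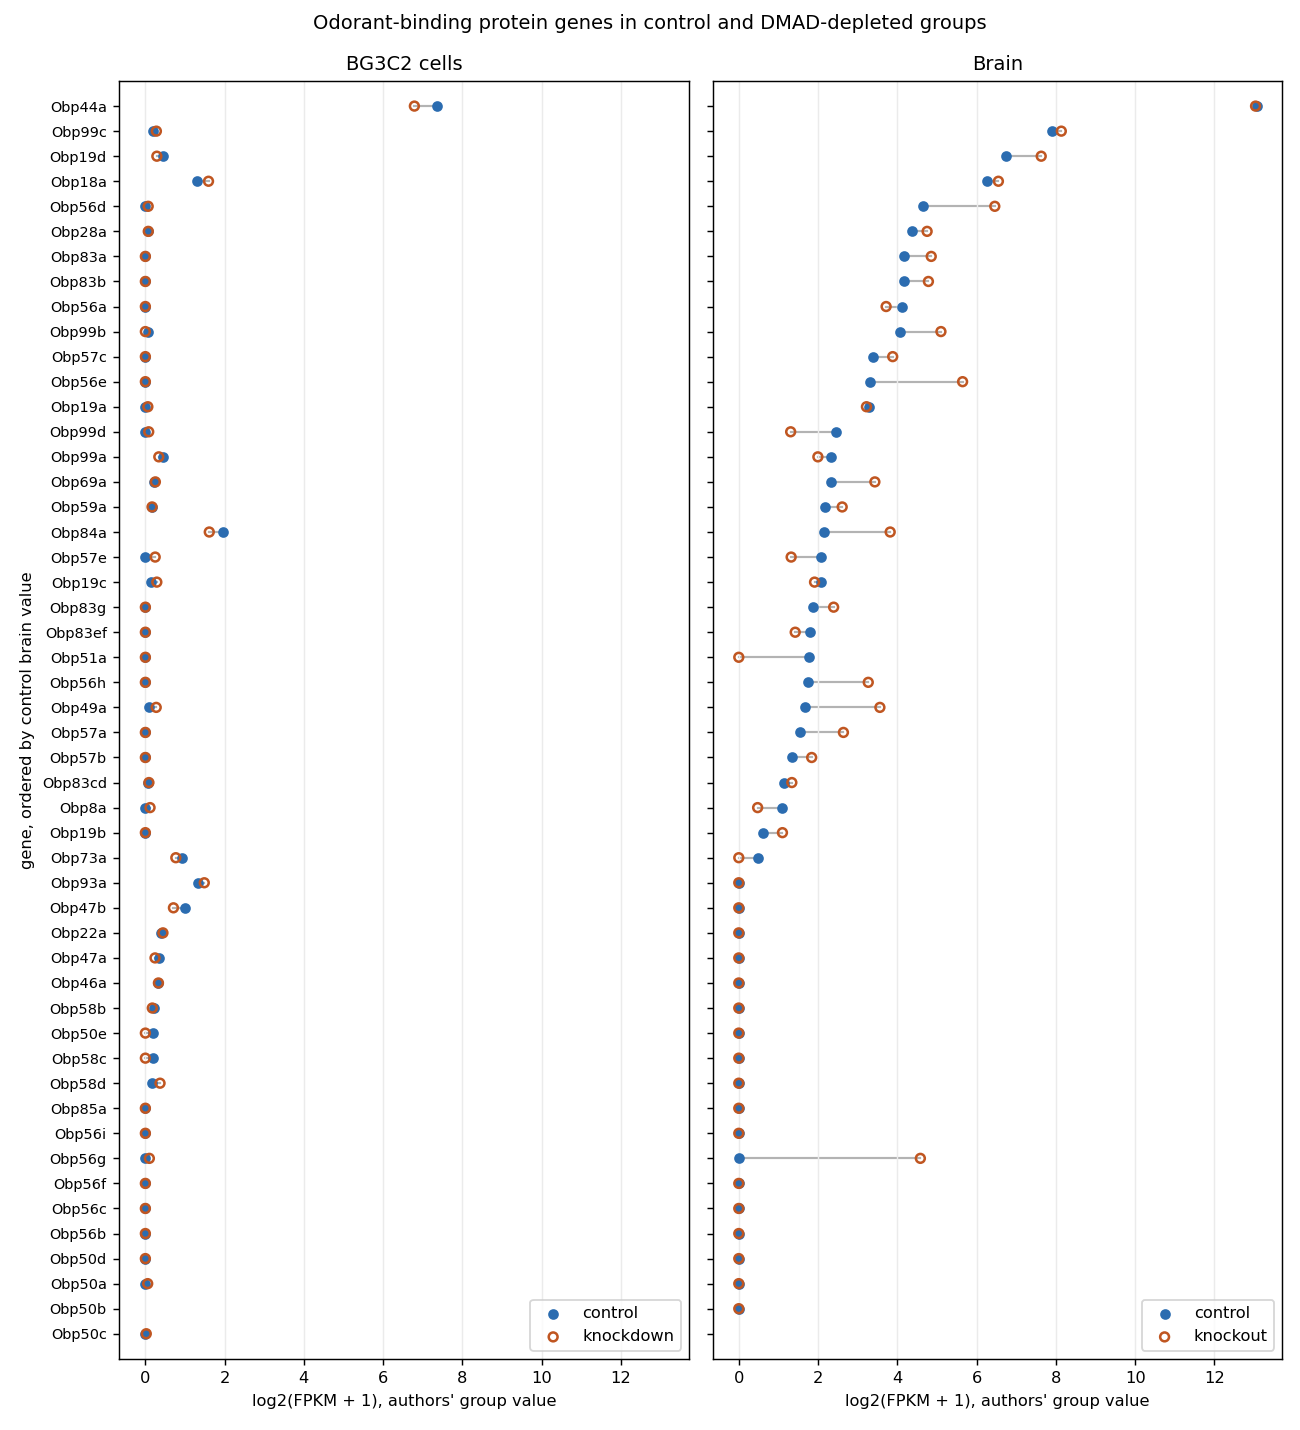
Authors' FPKM of each Obp gene on a log2(FPKM + 1) axis in BG3C2 cells (left) and brains (right), with filled blue points for the control group and open orange points for the DMAD-depleted group, 1 value per group and no error. Obp44a stands alone at the right of each panel, 26 members reach 1 FPKM in control brains but not in control BG3C2 cells, and most of the longer lines in the brain panel run towards higher knockout values.

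The median log2 fold change of the 18 tested members with a finite ratio was 0.69 in the authors' deposited table, against -0.01 for all tested genes. Called members numbered 2 of 19 (10.5%), both higher in knockout, beside a background of 0.387% of tested genes called higher and 0.762% called in either direction. At an unadjusted p below 0.05 there were 6 members (31.6%), all higher, beside 1.92% of tested genes higher and 3.51% in either direction. Of the 19 tested, 8 had a log2 fold change of at least 1 (42.1%, background 3.01%), counting Obp56g with its ratio against 0, and 0 had one of -1 or less (background 1.74%). Of the members without a test, Obp99d (-1.59), Obp8a (-1.53) and Obp57e (-1.10) had a log2 fold change below -1 in the authors' deposited table, Obp51a and Obp73a were listed at 0 in knockout only, and Obp57a (1.43) and Obp19b (1.14) were above 1. Members share clusters and sequence similarity, so these are counts of genes and not of independent events.

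The genes with the clearest differences belong to the Obp56 cluster, 9 members spread over 171 kb of 2R. Obp56d, found in taste and smell organs, was listed at 24.0 FPKM in control and 86.9 FPKM in knockout brains, with q = 0.0290 by Cuffdiff in the authors' deposited table. Obp56g (dm3, 2R:15670989-15671525), known as a seminal fluid protein of males and also found in the mouthparts, was listed at 0 in control and at 22.9 FPKM in knockout brains (q = 0.0103 by Cuffdiff). Both passed the adjusted threshold. A value of 0 in such a table can be a failed estimate, since 6 of 88 cytosolic ribosomal protein genes were also listed at 0 in at least 1 brain group, so no fold is given for Obp56g.

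Obp56e, another seminal fluid member, was listed at 8.87 FPKM in control and 49.1 FPKM in knockout brains, a log2 fold change of 2.47 in the authors' deposited table (p = 0.00135, q = 0.155, Cuffdiff). Obp56h, whose level in males affects mating behaviour, was listed at 2.34 and 8.62 FPKM (log2 1.88, the authors' p = 0.0849). Neither passed the adjusted threshold. Obp56a was the only tested member of the cluster listed lower in knockout, at 16.3 FPKM in control and 12.1 FPKM in knockout (the authors' p = 0.482). Obp56b, Obp56c, Obp56f and Obp56i were listed at 0 in both brain groups.

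Summed over the cluster, the 9 members gave 51.5 FPKM in control and 180 FPKM in knockout brains, a ratio of 3.49. Without Obp56g, a choice made after seeing the data, the sums were 51.5 and 157 FPKM and the ratio 3.04. The 4 genes of other families inside the same span gave 15.9 and 16.1 FPKM, nearly all of it from Toll-7, a receptor of the Toll family (14.7 and 15.9 FPKM). The higher values thus stood at 4 Obp genes, while Toll-7, the only neighbour tested in brain, was listed at similar levels in both groups. In BG3C2 cells the 9 members summed to 0 FPKM in control and 0.123 FPKM in knockdown.

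**Figure D2:**
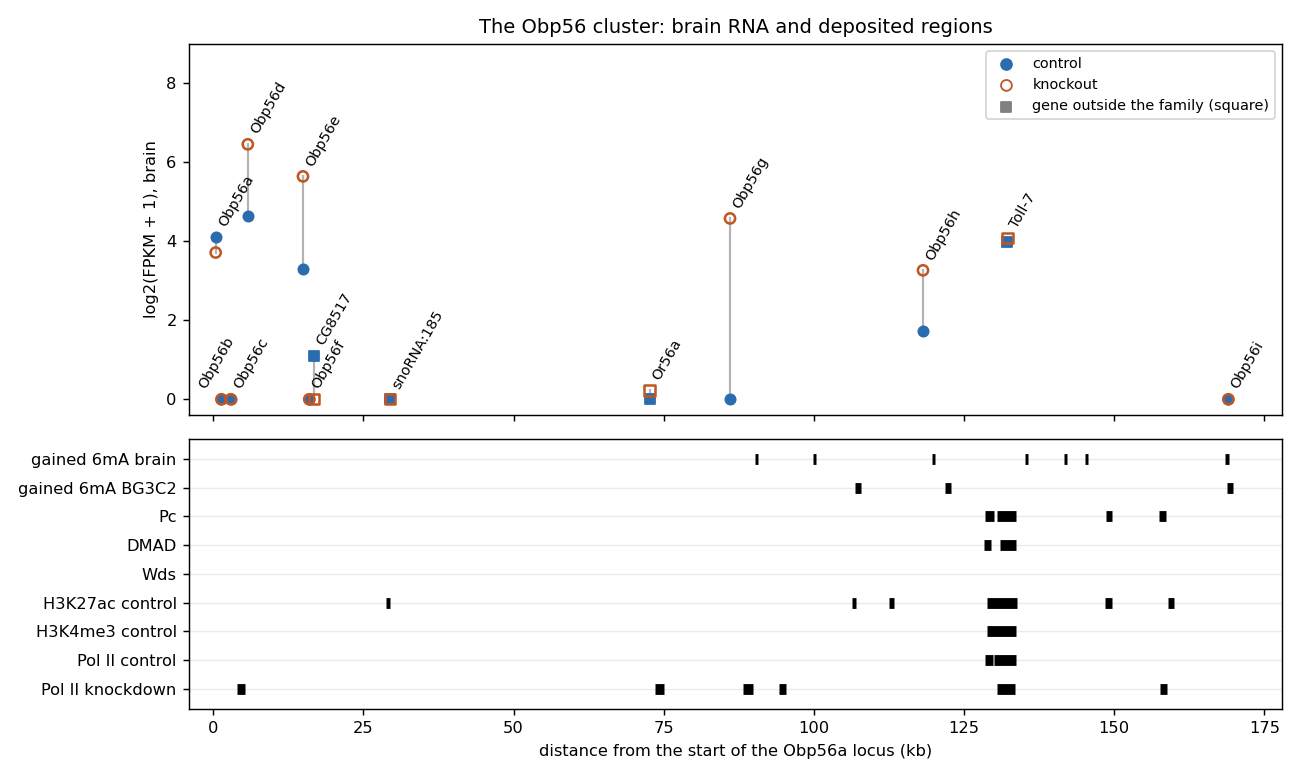
Upper panel, authors' brain FPKM on a log2(FPKM + 1) axis for the genes of the Obp56 cluster (circles for Obp genes, squares for others, filled for control, open for knockout) against distance from the start of the Obp56a locus in kb. Lower panel, the deposited regions in the same span as black bars. Obp56d, Obp56e, Obp56g and Obp56h stand higher in knockout. The H3K4me3 and Pol II peaks of the control lists lie at Toll-7, and most H3K27ac peaks of the control list lie elsewhere in the span.

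Obp83a and Obp83b, also called OS-F and OS-E, are paired neighbours on 3R that share hairs of the antenna with lush. Obp83a was listed at 17.0 FPKM in control and 27.9 FPKM in knockout brains (log2 0.72, p = 0.0965, the authors' deposited table, Cuffdiff). Obp83b was listed at 16.9 and 26.5 FPKM (log2 0.65, the authors' p = 0.248). The pair thus had like levels and like differences. Obp28a, abundant in antennae, was listed at 19.6 and 25.9 FPKM (the authors' p = 0.429).

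Obp84a and Obp69a, first described as antennal pheromone-binding protein related proteins, had larger ratios at lower levels. Obp84a (locus shared with CG10050) was listed at 3.43 FPKM in control and 13.1 FPKM in knockout (log2 1.94, p = 0.0755, the authors' deposited table). Obp69a (locus shared with CG32104), which takes part in social responses to the pheromone cis-vaccenyl acetate, was listed at 3.99 and 9.80 FPKM (log2 1.29, the authors' p = 0.428). Both p-values stayed above 0.05 beside log2 fold changes above 1. Obp59a, needed for humidity sensing, was listed at 3.51 and 5.10 FPKM (the authors' p = 0.489), and Obp19a at 8.71 and 8.32 FPKM (p = 0.932).

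Obp19d and Obp49a each had an unadjusted p below 0.05. Obp19d (dm3, X:20290640-20292009), also called PBPRP2 and found in taste and smell hairs, was listed at 107 FPKM in control and 197 FPKM in knockout brains (log2 0.88, p = 0.00145, q = 0.160, the authors' deposited table, Cuffdiff). It was the third most abundant member in each brain group, after Obp44a and Obp99c. Obp49a, which lowers the response of sweet neurons in the presence of bitter compounds, was listed at 2.2 and 10.8 FPKM (log2 2.30, the authors' p = 0.0293). Neither passed the adjusted threshold.

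The Obp57 members on 2R include genes tied to taste and egg-laying choices on host plants. Obp57c was tested and listed at 9.46 FPKM in control and 13.7 FPKM in knockout brains (the authors' p = 0.381). Obp57a (1.94 and 5.23 FPKM), Obp57b (1.55 and 2.58 FPKM) and Obp57e (3.22 and 1.5 FPKM) had no test. Within this cluster 2 genes outside the family stood far above them. CG13422 was listed at 47.5 and 183 FPKM and was called higher (q = 0.0103, Cuffdiff, the authors' deposited table), and CG18067 was listed at 297 and 458 FPKM (p = 0.021). Here, unlike in the Obp56 cluster, the largest differences in FPKM were those of the neighbours.

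Of the Obp99 members on 3R, Obp99b, also called turn on sex-specificity, is a gene of head fat cells with sex-dependent levels. It was listed at 15.8 FPKM in control and 33.3 FPKM in knockout brains (log2 1.07, p = 0.0398, q = 1.00, the authors' deposited table, Cuffdiff). Obp99c (locus shared with Gycalpha99B), the second most abundant member, was listed at 240 and 280 FPKM (log2 0.23, the authors' p = 0.744). Obp99a (4.02 and 2.99 FPKM) and Obp99d (4.44 and 1.48 FPKM) had no test and stood lower in knockout. The 4 neighbours therefore did not share a direction. Obp18a on X was listed at 75.5 and 92.6 FPKM (the authors' p = 0.307).

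By cluster, the summed brain FPKM was 119 in control and 209 in knockout for the 4 Obp19 genes, of which Obp19d made up most. It was 40.2 and 61.9 for the 5 Obp83 genes, while the most abundant gene between them, the helicase gene Rm62, was listed at 242 and 211 FPKM. It was 264 and 318 for the 4 Obp99 genes. Of the Obp19 genes, Obp19b (0.519 and 1.15 FPKM) and Obp19c (3.19 and 2.76 FPKM) had no test. Nor had Obp83cd (1.22 and 1.53 FPKM), Obp83ef (2.48 and 1.68 FPKM) and Obp83g (2.67 and 4.25 FPKM). The 4 Obp50 genes were listed at 0 in both brain groups. The ratio of the sums was 3.49 for Obp56 (3.04 without Obp56g), 1.76 for Obp19, 1.54 for Obp83, 1.45 for Obp58 and Obp59 (Obp59a alone, the Obp58 genes being listed at 0), 1.43 for Obp57 and 1.21 for Obp99, with no error available for any of them.

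The 7 seminal fluid members were followed as a group in brains, because these proteins are made in male accessory glands or ejaculatory tissue. Obp56e and Obp56g were listed higher as given above, Obp8a (1.13 and 0.390 FPKM) and Obp51a (2.40 FPKM and listed at 0) stood lower with no test, and Obp22a, Obp56f and Obp56i were listed at 0 in both groups. Of 15 male reproductive tract genes in the list, 9 were listed at 0 in both groups, Acp70A (sex peptide) and Acp26Aa among them, and PebIII, which is also made in antennae, held 509 of the 533 FPKM of the list in control brains. The other tested gene of the list, Acp95EF, was listed at 22.4 FPKM in both groups. Acp62F was listed at 0 in control and at 1.61 FPKM in knockout, and Acp53Ea at 0.801 and 1.23 FPKM, neither with a test. Over the whole list, 3 genes were listed higher in knockout and 3 lower, and its sum was 533 FPKM in control and 531 FPKM in knockout. The part of male reproductive tissue in the Obp56e and Obp56g values was not tested.

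Genes of the antenna and other chemosensory organs were in part listed in the same direction as the Obps. Of 18 chemosensory genes measured in brain, 9 were tested, 6 of them higher, with a median log2 fold change of 0.69 in the authors' deposited table, and 1 was called. The called gene was Est-6, a carboxylesterase of antennae and male ejaculatory duct, lower at 252 FPKM in control and 53.7 FPKM in knockout (q = 0.0103, Cuffdiff). The chemosensory protein gene a10 was listed at 21.0 and 43.9 FPKM (the authors' p = 0.031), Os-C at 33.1 and 53.6 FPKM (p = 0.103), and lush at 3.71 and 6.20 FPKM (p = 0.293). Orco, the co-receptor of olfactory neurons, was listed at 5.00 and 5.49 FPKM (the authors' p = 0.788). The list summed to 855 FPKM in control and 707 FPKM in knockout, since Est-6 outweighed the genes listed higher. The part of antennal or mouthpart tissue in the Obp values was not tested.

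Markers of other tissues differed as well. These lists were chosen with earlier results of these data known, so their counts are a description only. Of 20 gut enzyme genes in the table, 12 were tested and 2 were called, both higher. The background was 0.387% of tested genes called higher and 0.762% in either direction. The 2 were the amylase gene Amy-p (23.1 and 85.4 FPKM) and Jon25Biii (listed at 0 and at 7.55 FPKM). The gut list summed to 136 FPKM in control and 282 FPKM in knockout. Of 13 fat body genes, 11 were tested and 3 were called, all lower (Yp1, Yp2 and fit), and the list summed to 1853 and 769 FPKM. Of the 11 tested, 9 were listed lower and 2 higher, among them Fbp2 at 1.27 and 6.59 FPKM (the authors' p = 0.0463). All 7 sex-biased transcripts in the table were tested and listed lower, both the female yolk protein genes and roX1 and roX2, the male dosage compensation RNAs (roX2 164 and 92.0 FPKM, the authors' p = 0.0096). Of these 7, 5 are also in the fat body list (Yp1, Yp2, Yp3, fit and sxe2). Of the 14 photoreceptor genes, 11 were listed lower, and 1 was called, the channel gene trpl, at 270 and 124 FPKM (q = 0.0103, Cuffdiff, the authors' deposited table). That list summed to 8502 FPKM in control and 7234 FPKM in knockout. The part of gut, fat body, eye tissue or the sexes' share in the Obp values was not tested.

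**Figure D3:**
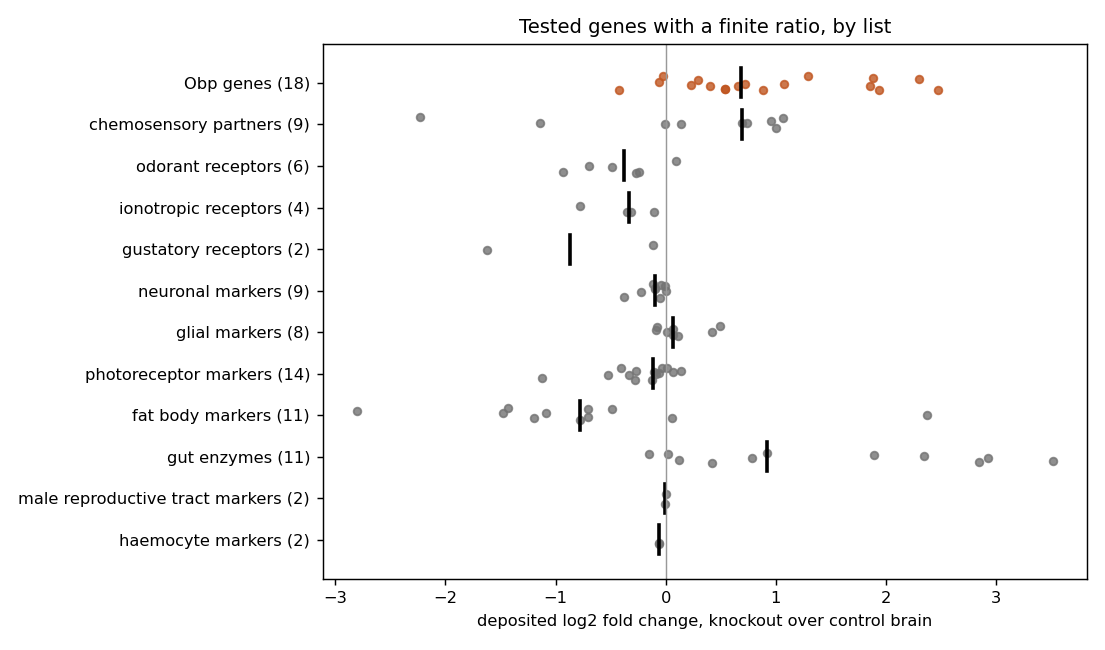
Deposited log2 fold change (knockout over control brain) of each tested gene with a finite ratio, by gene list, with a black bar at each list's median and the number of genes in brackets; points are jittered vertically. The Obp genes, the chemosensory partners and the gut enzymes have medians of 0.69, 0.69 and 0.92, the fat body genes -0.77, and the medians of neurons, glia and photoreceptors lie near 0, with trpl called lower among the photoreceptor genes.

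In BG3C2 cells few members had measurable RNA. Of 49, 5 reached 1 FPKM in at least 1 group (10.2%, against 54.4% of all genes) and 6 were tested (12.2%, against 57%). By Cuffdiff 0 of the 6 were called (background 0.254% of tested genes), and 0 had an unadjusted p below 0.05 (background 2.31%). The other 43 members stood at 0.366 FPKM or less in both groups. Over all 49, 20 were listed higher in knockdown, 11 lower and 18 at 0 in both groups, nearly all at levels where the table gives no test.

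Obp44a was again the most abundant, at 162 FPKM in control and 109 FPKM in knockdown cells (log2 -0.57, p = 0.725, the authors' deposited table, Cuffdiff). It made up 93.9% and 91.2% of the family's sum, and the rest of the family summed to 10.6 FPKM in each group. Pabp2, which shares the locus, was listed at 130 and 121 FPKM. Obp84a was listed at 2.89 and 2.06 FPKM, Obp93a at 1.5 and 1.80 FPKM, and Obp18a at 1.45 and 2.02 FPKM. Obp47b was listed at 1.00 and 0.634 FPKM and Obp73a at 0.882 and 0.703 FPKM.

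The median log2 fold change of the 6 tested members was -0.41 in the authors' deposited table, against -0.01 for all tested genes. Of the 6, 4 share their locus with a gene outside the family (Obp44a, Obp47b, Obp84a and Obp93a). Without them the median was 0.073, from Obp18a and Obp73a alone, so the direction of the BG3C2 median rests on the members with shared loci. Obp47b, for example, lies at the locus of Fpps, which was listed at 156 and 158 FPKM, and no source used here says how reads were divided there.

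The tables of cells and brains were normalized separately, so levels are set side by side only as listed. In the control groups, 30 of the 48 shared members had the higher FPKM in brain, 10 in BG3C2 cells, and 8 were listed at 0 in both. Obp18a, Obp44a and Obp84a reached 1 FPKM in both controls, 26 members in brain only, and Obp47b and Obp93a in BG3C2 cells only. The Obp56 and Obp83 genes did not exceed 0.0723 FPKM in either BG3C2 group. The 6 members with an unadjusted p below 0.05 in brain had no test in BG3C2 cells.

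Chromatin regions were compared with the loci of the BG3C2 table, counting a locus when at least 1 bp overlapped. Of the 11 deposited lists, 9 are chromatin lists: H3K27ac, a mark of active enhancers and promoters, H3K4me3, a mark of active promoters, and RNA polymerase II (Pol II), each with a control and a knockdown list, and DMAD, Polycomb (Pc), a subunit of a repressive complex, and Wds, a subunit of H3K4 methyltransferase complexes. The other 2 are named as lists of gained 6mA, in BG3C2 cells and in brain, and how the gain was called is not stated in the labels. For BG3C2 cells the labels name 3 control and 3 knockdown 6mA libraries. For brain they name only 1 control and 1 knockout 6mA library, so the brain list rests on 1 library in each group. The labels used here describe no sample for the H3K27ac and Pol II lists. The lists' own names give the cells as BG3 for H3K27ac and H3K4me3. They give BG3C3 for Pol II in control, and BG3C2 for Pol II in knockdown and for DMAD, Pc and Wds. None of the 9 chromatin lists is from brain. Whether the Pol II lists come from the same line is therefore not given. No list has replicate values.

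A smaller share of members than of all loci carried a region in each list. H3K27ac peaks of the control list overlapped 9 member loci (18.4%, against 60.5% of all loci) and those of the knockdown list 10 (20.4%, against 60.6%). H3K4me3 peaks overlapped 6 member loci in control and 6 in knockdown (12.2% each, against 54.6% and 55%). Pol II peaks overlapped 7 (14.3%, against 50.5%) in control and 10 (20.4%, against 43.9%) in knockdown. Each of these marks was thus on the locus of at most 10 of the 49 members. The members have 47 distinct loci, and here and below a shared locus counts once for each of its genes.

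DMAD peaks overlapped 7 member loci (14.3%, against 43.4%), Pc peaks 8 (16.3%, against 42.6%) and Wds peaks 4 (8.16%, against 35.3%). Gained 6mA overlapped 4 member loci in the BG3C2 list (8.16%, against 22.9%) and 3 in the brain list (6.12%, against 22%). Short loci are less likely to meet any region. Among loci of at most 2000 bp, 36 of them members, H3K27ac of the control list stood on 3 member loci (8.33%, against 37.1%) and Pol II of the control list on 1 (2.78%, against 23.5%). No short member locus carried gained 6mA, where the share of all short loci was 3.65% in the BG3C2 list and 2.69% in the brain list.

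**Figure D4:**
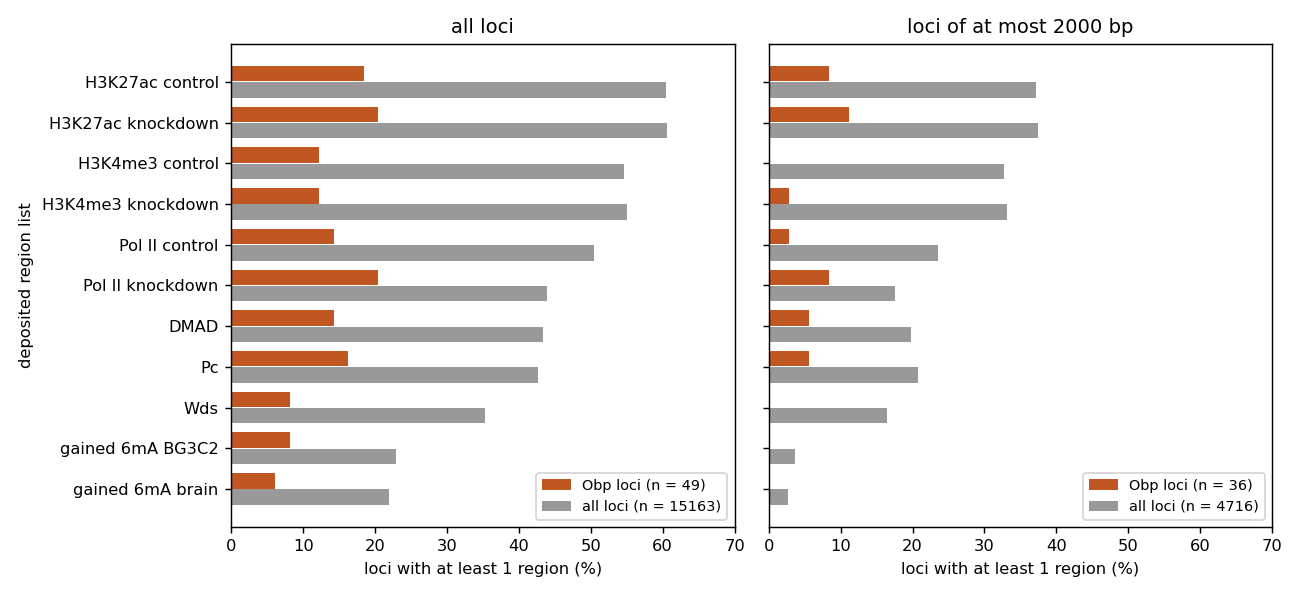
Share of Obp loci (orange) and of all loci (grey) of the BG3C2 table with at least 1 region of each deposited list, for all loci (left) and for loci of at most 2000 bp (right), without error bars because each list is 1 set of positions. The Obp share is below the share of all loci for each list in both panels. A locus shared by several genes counts once for each gene.

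In all, 21 members carried a region of any list (42.9%, against 80.2% of all loci) and 28 carried none. Each of the 9 members that share a locus with a gene outside the family carried at least 1 region, against 12 of the 40 others. The locus of Obp44a and Pabp2 held H3K27ac, H3K4me3, DMAD, Pc and Wds, and Pol II in the control list only. None of the H3K4me3 peaks of the control list lay on a member locus free of other genes, so these marks cannot be assigned to the Obp genes.

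Among members with a locus of their own, Obp19d and Obp22a carried H3K27ac in both lists, and Obp28a carried H3K27ac in the knockdown list together with a DMAD peak. Obp99b carried H3K27ac in both lists, Pc, and Pol II in the knockdown list, with Pol II and H3K27ac scores (the authors' peak scores, higher for a smaller p) of 51.0 to 55.6, close to the lowest in those lists. Obp46a carried DMAD and Pol II of the control list, and met an H3K4me3 peak of the knockdown list by 6 bp. Obp99d carried a Pc peak. The Obp99 span as a whole held 12 Pc peaks, the most of the clusters.

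Pol II stood in 1 list only at 11 of the 49 members (22.4%), against 30.0% of all loci. Obp51a, Obp85a and Obp99c had Pol II in both lists, 4 members in control only (Obp44a, Obp46a, Obp47b and Obp93a) and 7 in knockdown only (Obp59a, Obp73a, Obp83a, Obp83cd, Obp83ef, Obp83g and Obp99b). Obp83cd and Obp83ef share 1 locus and met the same peak. Apart from the Obp73a peak (score 141.63), the peaks at the 7 knockdown-only members scored 51.0 to 75.2. The median score of the knockdown list was 83.7 and its lowest 50.01. The share in knockdown only was 14.3% of members and 11.7% of all loci, and in control only 8.16% and 18.3%. The lists also differed genome-wide, with 50.3% of control and 45.4% of knockdown Pol II peaks overlapping a peak of the other list, against 93.3% and 92.8% for H3K27ac. On X, where 6 members lie, the control list has 733 Pol II peaks (10.8% of the list) and the knockdown list 236 (3.18%). The 6 members on X carried no Pol II peak in either list, and the nearest knockdown peak was 609 kb from Obp18a and 1535 kb from Obp8a. The part of the lists' different cell names in these counts was not tested. Of the 7 members with Pol II in knockdown only, just Obp73a reached a test in BG3C2 cells, and all 7 stood below 1 FPKM in both groups.

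**Figure D5:**
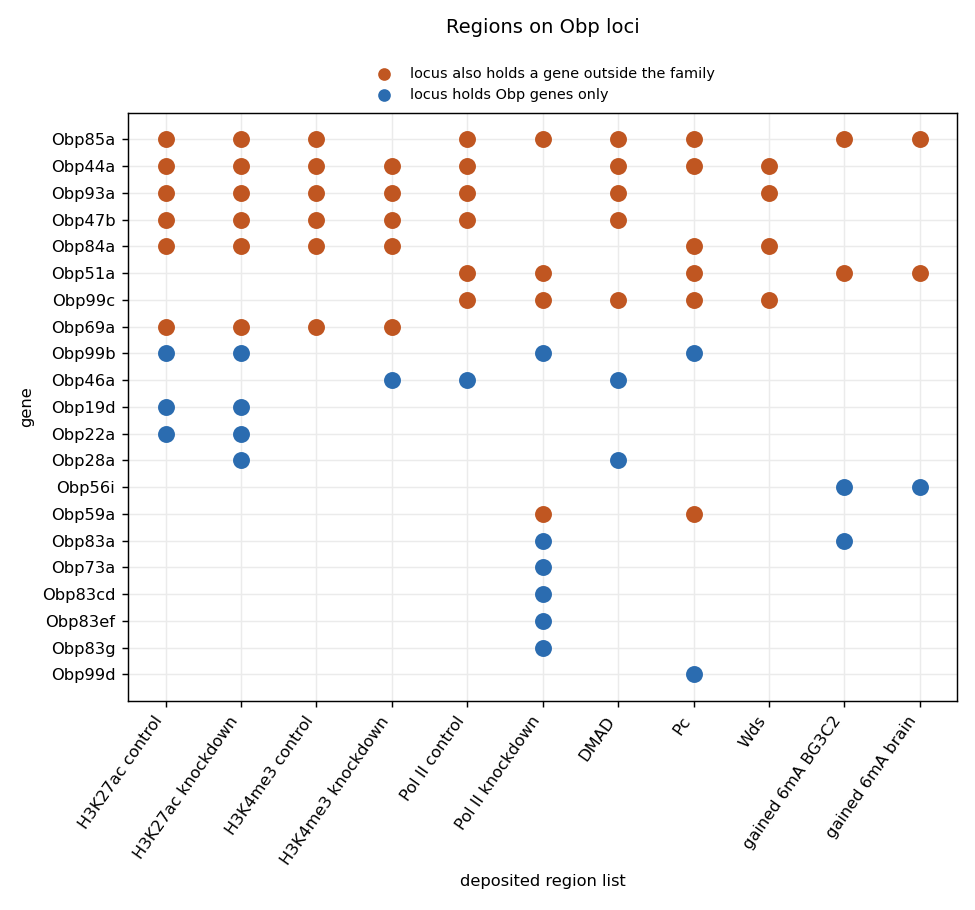
The 21 Obp genes with at least 1 region on their locus (rows) against the deposited region lists (columns), with an orange dot where the locus also holds a gene outside the family and a blue dot where it holds Obp genes only. Orange rows fill most of the H3K4me3, Wds and DMAD columns, and the Pol II knockdown column holds more blue dots than any other column.

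Gained 6mA lay on Obp51a, Obp56i and Obp85a in both lists and on Obp83a in the BG3C2 list only. Obp85a held 20 of the BG3C2 windows and 9 of the brain regions on its merged locus of 113266 bp, and Obp51a (29983 bp, shared with hbs and CG43101) held 3 brain regions. Obp56i, with a locus of its own (dm3, 2R:15752222-15756219), met a window at 2R:15754001-15755000 in the BG3C2 list and a region at 2R:15753741-15754308 in the brain list. Obp56i and Obp85a were listed at 0 in all 4 RNA groups, and Obp51a at 2.40 FPKM in control brains and 0 elsewhere.

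None of the 6 members with an unadjusted p below 0.05 in brain had gained 6mA on its locus in the brain list. All 6 loci are shorter than 2000 bp, where 2.69% of all loci carried such a region, so the count says nothing particular about these members. The nearest brain region was 3.97 kb from Obp56g, 11.2 kb from Obp99b, 12.0 kb from Obp49a, 12.9 kb from Obp19d, 68.5 kb from Obp56d and 75.0 kb from Obp56e. Over all members the median distance was 13.7 kb, against 8.02 kb for all loci, so these 6 lay on both sides of the family's median. Within the Obp56 span the brain list had 7 regions, all in the part from Obp56g onwards, where Obp56g and Obp56h stood higher and Obp56i was listed at 0. The part without any such region held Obp56d and Obp56e, both listed higher in knockout, and Obp56a, listed lower.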

How the data were processed

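The submitters' processing notes name Cuffdiff 2.2.1 and TopHat2 2.0.8, MACS 1.4.2 and Bowtie 0.12.9, CASAVA 1.4, bedtools, and the builds dm3 and mm9; the sources used here give no roles or settings. Per the file headers, the RNA tables are Cuffdiff gene tables with the authors' FPKM per gene and group, their log2 fold change, p-value and q-value. The deposited log2 fold change differed from the ratio of the FPKM values by at most 1.48e-05. The H3K27ac, H3K4me3 and Pol II lists hold the authors' peak score; the other deposited lists were used for positions only. Depth is unknown, as no file used here holds counts, and no interval is given. There were 0 unused columns of per-sample values.

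Computed here, with Python 3.11.15 and pandas 2.3.3, were counts, sums, medians, log2 ratios of FPKM + 1 and + 0.1, and overlaps of at least 1 bp, the last tested on simulated data. No test was fitted, since each group has 1 value. Members named are those tested, at 1 FPKM or more in a group, or with a region on the locus, apart from members given as listed at 0. The members, gene lists and rules were chosen with earlier results of these data known. The RefSeq gene table matched 50 of 50 symbols and was used for names only.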

Additional observations from a re-analysis of the deposited data

How the results depend on the processing

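No paired analysis was possible because the tables hold 1 value per gene and group, and for the same reason no library could be left out. In brain, 0 members were called at q below 0.01 and 6 had an unadjusted p below 0.05. The brain median log2 fold change (0.69) was 0.65 with FPKM + 1, 0.68 with FPKM + 0.1 and 0.46 over all members above 0; with choices made after seeing the data it was 0.72 without shared loci and 0.60 without the Obp56 cluster. The BG3C2 median (-0.41) was -0.22 with FPKM + 1, -0.38 with FPKM + 0.1, -0.40 after centring and -0.49 for members of at least 1 FPKM; it reversed to 0.023 over all members above 0 and to 0.073 without shared loci (the latter added after seeing the data, from fewer members). All 48 alternatives for single members kept their sign by construction, since each added the same amount to both groups. Region counts depended on the locus definition by construction. With 1 kb added on each side they were 15 for H3K27ac control, 11 for each H3K4me3 list, 17 for Pol II knockdown, 7 for Wds, and 8 and 6 for gained 6mA in BG3C2 and brain. For loci that overlap no other they were 3 and 4 for H3K27ac (control, knockdown), 0 and 1 for H3K4me3, 1 and 4 for Pol II, 2 for DMAD, 2 for Pc, 0 for Wds, and 2 and 1 for gained 6mA. For loci of at most 2000 bp (added later) they were 3 and 4, 0 and 1, 1 and 3, 2, 2, 0, and 0 and 0 in that order; without loci shared outside the family (added later), 3 and 4, 0 and 1, 1 and 6, 2, 2, 0, and 2 and 1. With at least 50% of the region inside the locus, DMAD gave 3, H3K4me3 knockdown 3 and Wds 1. With the upper 50% of peaks by score, H3K27ac gave 5 and 6 and Pol II 4 and 4. Unknown depth limits every statement on members listed at 0 or without a test.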

Other observations

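The receptor families that act downstream of Obps had few tested genes in brain, and most of those few were listed lower in knockout. Of 59 odorant receptor genes (symbols Or and a digit), 6 were tested in brain, 5 of them listed lower, with a median log2 fold change of -0.38 in the authors' deposited table. Or43b, the most abundant, was listed at 38.1 FPKM in control and 40.6 FPKM in knockout brains. Of 59 ionotropic receptor genes, 4 were tested, all listed lower, with a median of -0.33, led in level by Ir76a (18.4 and 17.1 FPKM). Of 59 gustatory receptor genes, 2 were tested, both listed lower (Gr10a and Gr2a). Over all genes of each family, tested or not, 19 odorant receptor genes were listed higher in knockout brains and 27 lower. For ionotropic receptors the counts were 17 and 19, for gustatory receptors 18 and 18, and for Obps 21 and 11. By Cuffdiff 0 receptor genes of these families were called in brain (background 0.762% of tested genes), and 0 had an unadjusted p below 0.05 (background 3.51%). With so few receptor genes tested, these counts say nothing particular about the families. The difference between Obp and receptor genes was not tested.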
